A study of Homo sapiens with 9 samples.

Results

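The clade B serpins are mostly protease inhibitors that act inside cells, and 10 of their genes were described here in TE13, an esophageal squamous cell carcinoma (ESCC) cell line. The members were SERPINB1, SERPINB2, SERPINB3, SERPINB4, SERPINB5, SERPINB6, SERPINB7, SERPINB8, SERPINB9 and SERPINB13, taken by symbol from a table of 60605 genes. Where a symbol had several entries, the entry would be chosen by its highest mean FPKM over the 9 libraries, but each member had 1 entry, so no measured value decided which entry was used. FPKM is a gene's count divided by its exonic length and scaled to the depth of the library. All 10 members were among the 21395 genes tested, those averaging 0.1 FPKM or more. The other 3 clade B genes, SERPINB10, SERPINB11 and SERPINB12, were not members and are given only for their place in the same gene cluster.

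Most serpins trap a protease by offering it a bait loop. The protease cleaves the loop, stays bound to the serpin, and both are inactivated. Clade B members lack a classical secretion signal, and many are made in squamous epithelia, where SERPINB3 and SERPINB4 are known as the squamous cell carcinoma antigens. In humans their genes lie in a pair of clusters, on 18q21 and on 6p25.

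The libraries came from TE13 cells transfected either with a control siRNA or with 1 of a pair of siRNAs against PARylator, siRNA.1 and siRNA.2, in 3 libraries per condition that the series describes as biological replicates. PARylator is the long noncoding RNA LINC00885, and no sample carried any other treatment. All libraries derive from 1 cell line and the controls from 1 control siRNA, the time between transfection and RNA extraction was not stated for these libraries, and the p-values measure the spread between these libraries. Both knockdown comparisons share the same 3 control libraries, so they are not independent of each other.

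Total counts on genes lay between 15337917 and 17899074 in the control libraries, between 15374616 and 17762752 under siRNA.1 and between 19213164 and 22559998 under siRNA.2. LINC00885 was counted 6, 7 and 12 times under control siRNA, 4, 5 and 2 under siRNA.1, and 2, 0 and 4 under siRNA.2. Its log2 fold change was -1.21 under siRNA.1 (SE 0.95, edgeR adjusted p = 0.376) and -2.33 under siRNA.2 (SE 1.01, edgeR adjusted p = 0.0659). The knockdown did not pass the test at this depth, and counts this low leave the test little power. The paper reports the knockdown in TE13 cells by qPCR. Mitochondrial genes took 7.46% to 7.66% of the counts under control siRNA, 4.99% to 5.06% under siRNA.1 and 5.54% to 5.56% under siRNA.2. All 10 epithelial markers, of which CDH1 and EPCAM are not particular to squamous cells, were detected. Their summed level was 951 to 971 FPKM in the control libraries, 752 to 783 FPKM under siRNA.1 and 745 to 762 FPKM under siRNA.2. Of these 10 markers, 3 rose and 6 fell under each siRNA. Over all genes tested, 15.0% rose and 15.2% fell under siRNA.1, and 15.8% rose and 15.1% fell under siRNA.2. KRT5, a basal keratin, fell by 1.86 under siRNA.1 and by 1.36 under siRNA.2 on the log2 scale, and KRT13, a keratin of suprabasal esophageal cells, fell by 2.84 and by 2.71. KRT6A, DSG3 and EPCAM rose, by 0.34 and 0.58, 0.58 and 0.27, and 0.44 and 0.45, and KRT14 had log2 fold changes of 0.21 and -0.08 and did not pass. The summed level of 10 blood cell markers was 5.54 to 6.63 FPKM under control siRNA, 7.89 to 8.81 FPKM under siRNA.1 and 7.41 to 8.73 FPKM under siRNA.2. Of these 10 markers 6 were tested, 4 rose and 1 fell under each siRNA, beside the same shares of all genes. LYZ rose by 3.08 and 3.24 on the log2 scale and FCER1G by 2.41 and 2.89. PTPRC (CD45), which defines leukocytes, rose by 2.15 and 2.12 and CSF1R by 0.85 and 0.63. LAPTM5, the largest term of the sum under control siRNA and siRNA.1 by mean FPKM, fell by 0.75 and 1.06. Under siRNA.2 the largest term was LYZ. PTPRC stood at 0.0333 FPKM under control siRNA, 0.153 FPKM under siRNA.1 and 0.147 FPKM under siRNA.2, and MS4A1, which defines B cells, was at 0 in every library. The summed level of 6 fibroblast markers was 2.23 to 2.49 FPKM under control siRNA and 1.46 to 1.72 FPKM over the siRNA libraries. The part of these differences in the serpin values was not tested, and in bulk RNA fewer cells of a type and less RNA per cell cannot be told apart.

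In the deposited coordinates (GRCh38), the 18q21 cluster ran from SERPINB5 to SERPINB8 at chr18:63476958-64019779, a span of 542822 bases. The members lay there in the order SERPINB5, SERPINB13, SERPINB4, SERPINB3, SERPINB7, SERPINB2 and SERPINB8. SERPINB4 and SERPINB3 lay on the minus strand and the other 5 on the plus strand. The 6p25 cluster held SERPINB1, SERPINB9 and SERPINB6, all on the minus strand, at chr6:2832332-2972165, a span of 139834 bases. All 13 clade B genes were protein coding, with 7 or 8 exons in their canonical transcripts.

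The promoters of the 4 members with the largest changes are shown as RefSeq gives them for GRCh38.p14, each running from 250 bases before the annotated start to 50 after it. Capitals mark the motif matches found in them. The letters searched were TGANTCA for AP-1. For TEAD they were GGAATG, which these windows hold on the other strand and so print in reverse complement. For the TATA box they were TATAAA.
SERPINB13, chr18:63587093-63587392, plus strand: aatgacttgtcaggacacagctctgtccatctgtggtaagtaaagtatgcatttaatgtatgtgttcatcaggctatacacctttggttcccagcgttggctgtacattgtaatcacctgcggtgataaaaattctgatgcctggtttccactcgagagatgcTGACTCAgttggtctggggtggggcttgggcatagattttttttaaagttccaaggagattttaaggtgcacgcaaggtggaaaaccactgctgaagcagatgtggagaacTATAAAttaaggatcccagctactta
SERPINB4, chr18:63644207-63644506, minus strand: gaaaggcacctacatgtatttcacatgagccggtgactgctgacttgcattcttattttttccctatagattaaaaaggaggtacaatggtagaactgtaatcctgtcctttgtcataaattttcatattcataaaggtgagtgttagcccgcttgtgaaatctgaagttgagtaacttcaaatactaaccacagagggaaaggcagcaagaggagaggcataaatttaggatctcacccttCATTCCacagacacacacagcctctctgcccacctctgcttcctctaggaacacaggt
SERPINB3, chr18:63661844-63662143, minus strand: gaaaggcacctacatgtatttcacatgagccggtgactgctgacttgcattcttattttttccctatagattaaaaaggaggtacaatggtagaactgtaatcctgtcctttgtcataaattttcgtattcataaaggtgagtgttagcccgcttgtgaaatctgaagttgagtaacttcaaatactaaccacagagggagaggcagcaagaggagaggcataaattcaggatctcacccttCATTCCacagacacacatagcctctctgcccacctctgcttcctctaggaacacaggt
SERPINB2, chr18:63887455-63887754, plus strand: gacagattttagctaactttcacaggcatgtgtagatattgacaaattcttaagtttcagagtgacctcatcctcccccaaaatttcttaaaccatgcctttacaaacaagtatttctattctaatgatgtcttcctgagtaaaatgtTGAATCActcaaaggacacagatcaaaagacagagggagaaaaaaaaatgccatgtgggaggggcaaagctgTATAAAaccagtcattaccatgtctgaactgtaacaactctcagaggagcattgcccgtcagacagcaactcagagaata

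The SERPINB3 and SERPINB4 windows were identical at 296 of 300 aligned positions (98.7%), and the canonical transcripts of both genes at 1633 of 1707 (95.7%). Both windows held the TEAD match at -8, counted from the start site as 0, and no TGANTCA or TATAAA. The SERPINB13 window held TGACTCA at -87 and TATAAA at 24, past the start site, and the SERPINB2 window held TGAATCA at -102 and TATAAA at -30. The SERPINB2 and SERPINB13 windows were identical at 44.3% of alignment columns. Promoter windows were found for 11 of the 13 clade B genes, 17 windows in all, and a motif could be counted once per window on either strand. TGANTCA was in 7 of the 17 windows, against 7.71% of all 35116 RefSeq promoters of the same length, and TATAAA in 7, against 11.5%. The GC box GGGCGG was in 6 windows, those of SERPINB5, SERPINB1 and SERPINB9 and 3 of SERPINB6, against 45.0% of all promoters. All 3 members on 6p25 held it, and of the 8 genes on 18q21 with a window SERPINB5 was the single one. The interferon gamma activation letters TTCNNNGAA were in 4 windows (7.66% of all promoters), the antioxidant response letters TGACNNNGC in 2 (13.3%), the C/EBP letters TTGCNNAA in 2 (10.5%), GGAATG in 2 (14.0%), the IRF-type letters GAAANNGAA in 1 (8.11%) and the amino acid response letters TTGCATCA in 0 (0.866%). The letters of AP-1 and of the antioxidant response can share bases. Several windows belong to 1 gene and the windows of SERPINB3 and SERPINB4 are near copies, so these counts are descriptions.

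By the deposited FPKM, 3 clade B serpins stood highest in the control libraries. SERPINB2, an inhibitor of urokinase and tissue plasminogen activator, stood at 80.2 ± 3.93 FPKM (SD, n = 3). SERPINB1, an inhibitor of neutrophil elastase, stood at 53.5 ± 0.550 FPKM, and SERPINB5 (maspin), which does not inhibit proteases in the usual way, at 44.1 ± 1.79 FPKM. These 3 genes were expressed above 98.5%, 97.5% and 96.8% of the 28065 genes with a level above 0 in this group. The other 7 members followed at lower deposited values. SERPINB13, which inhibits cathepsins of the cysteine type, stood at 7.33 ± 0.451 FPKM and SERPINB6, a broad inhibitor of trypsin-like proteases, at 7.24 ± 0.215 FPKM, with overlapping ranges. SERPINB8, which inhibits furin, stood at 5.30 ± 0.289 FPKM. SERPINB3 at 4.16 ± 0.797 FPKM overlapped SERPINB9, the granzyme B inhibitor, at 3.88 ± 0.625 FPKM. SERPINB7 (megsin), linked to the skin barrier, stood at 2.19 ± 0.0777 FPKM and SERPINB4 at 1.04 ± 0.243 FPKM. All other neighbours in this order had ranges that did not overlap. FPKM is per length, and a comparison between genes rests on the length used. SERPINB6 had a deposited exonic length of 13201 bases against 1315 for its canonical transcript, a ratio of 10.04, while the ratio was between 1.0 and 1.74 for the other members. Scaled to canonical transcript lengths, a choice made after seeing the data, SERPINB6 stood at 72.6 FPKM under control siRNA and ranked 2nd, between SERPINB2 at 115 FPKM and SERPINB1 at 65.9 FPKM, with SERPINB5 at 63.8 FPKM. The place of SERPINB6 among the members was therefore not settled by these files, whereas SERPINB2 ranked 1st in each group on either length.

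**Figure D1:**
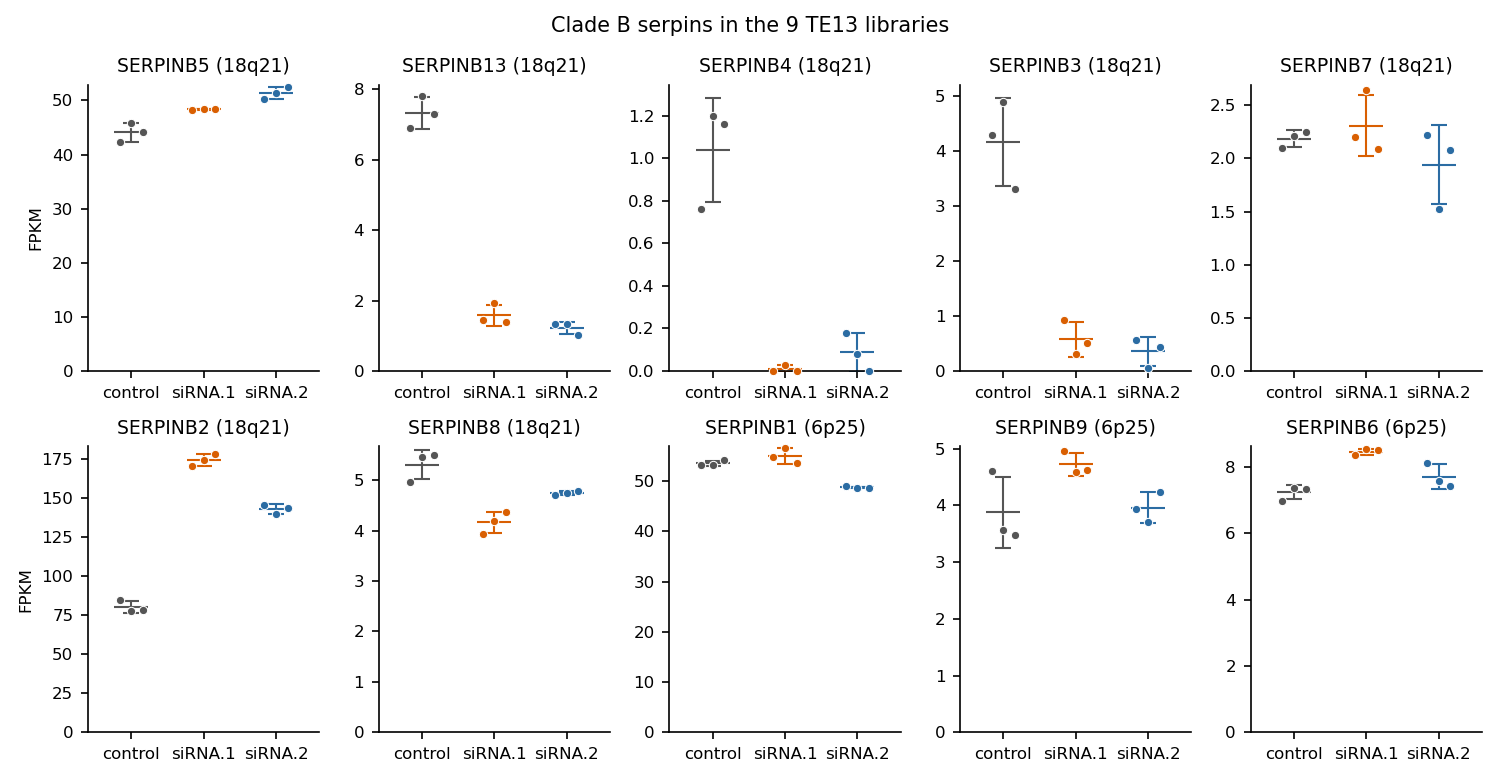
FPKM of the 10 clade B serpins (vertical axes, each from 0) in the 3 conditions (horizontal axes), with 1 point per library, a horizontal bar for the mean and error bars of 1 SD. SERPINB13, SERPINB4, SERPINB3 and SERPINB8 lie lower in all 6 siRNA libraries than in all 3 control libraries. SERPINB2, SERPINB5 and SERPINB6 lie higher in all 6. The share of all genes that separate in this way was not counted.

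Under siRNA.1, 2 of the 10 members rose (SERPINB2 and SERPINB6) and 4 fell (SERPINB3, SERPINB4, SERPINB8 and SERPINB13), against a background of 15.0% of the 21395 genes tested that rose and 15.2% that fell. Under siRNA.2, 2 rose (SERPINB2 and SERPINB5) and 4 fell (SERPINB1, SERPINB3, SERPINB4 and SERPINB13), against 15.8% and 15.1%. The members were proposed with results of these data known, so these counts describe them and support nothing further. The median log2 fold change of the 10 members was 0.03 under siRNA.1 and -0.16 under siRNA.2, beside 0.00 over all genes tested in both. Around these medians, 3 members moved far down and SERPINB2 moved up under both siRNAs.

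**Figure D2:**
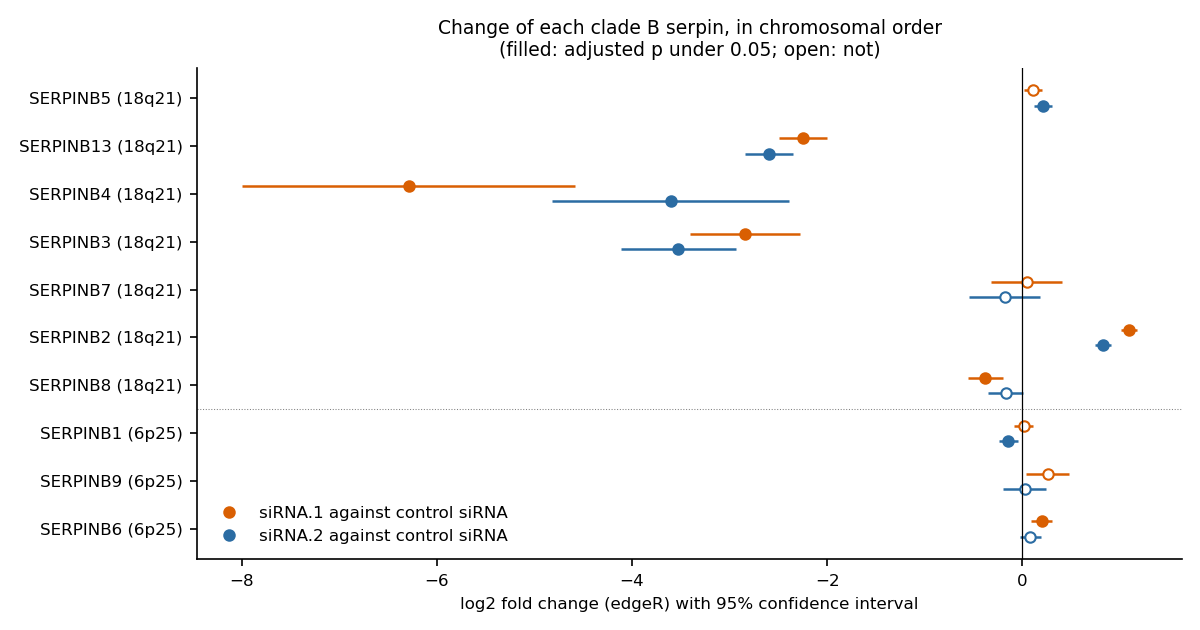
log2 fold change of each member against control siRNA (horizontal axis, edgeR, lines for 95% confidence intervals), in chromosomal order with 18q21 above the dotted line and 6p25 below it. Filled points passed an adjusted p of 0.05 and open points did not. SERPINB13, SERPINB4 and SERPINB3 lie between -2.25 and -6.29, SERPINB2 lies at 1.09 and 0.82, and the other 6 members lie between -0.38 and 0.26.

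SERPINB13, also called headpin, was the most abundant of the members that fell strongly. It had 480, 551 and 592 counts under control siRNA, 116, 134 and 109 under siRNA.1, and 119, 116 and 105 under siRNA.2. In FPKM these were 6.90, 7.80 and 7.29, then 1.44, 1.92 and 1.38, then 1.33, 1.33 and 1.03. Every siRNA library was below every control library. The log2 fold change was -2.25 under siRNA.1 (SE 0.12, edgeR adjusted p = 4.48e-71) and -2.59 under siRNA.2 (SE 0.12, edgeR adjusted p = 4.22e-93). Relative to library totals, its summed counts came to 21.3% of control under siRNA.1 (95% exact binomial interval 19.0% to 23.9%) and to 16.6% under siRNA.2 (14.7% to 18.7%), intervals that cover counting error only. Among the 12532 genes averaging 1 FPKM or more, it had the 19th lowest log2 fold change under siRNA.1 and the 10th lowest under siRNA.2.

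SERPINB3, an inhibitor of cathepsins L, S and K, fell as well. It had 112, 130 and 101 counts under control siRNA, 28, 8 and 15 under siRNA.1, and 19, 2 and 17 under siRNA.2. In FPKM these were 4.28, 4.89 and 3.31, then 0.92, 0.30 and 0.50, then 0.56, 0.06 and 0.44. The siRNA libraries lay below all control libraries and overlapped each other, with replicate 2 lowest under both siRNAs. The log2 fold change was -2.84 under siRNA.1 (SE 0.29, edgeR adjusted p = 4.48e-21), the 11th lowest of the 12532 genes, and -3.53 under siRNA.2 (SE 0.30, edgeR adjusted p = 1.24e-29), the 4th lowest. The remaining counts were 14.3% of control (10.5% to 19.3%) and 8.79% of control (6.11% to 12.3%). SERPINB3 shares 620 exonic bases, 36.3% of its exonic length, with SERPINB11 on the opposite strand, and whether the counting used strand was not stated. SERPINB11 itself had 0 counts in all 9 libraries.

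SERPINB4, an inhibitor of cathepsin G and chymase, was the least abundant member and fell close to the limit of detection. It had 23, 37 and 41 counts under control siRNA, 0, 1 and 0 under siRNA.1, and 7, 3 and 0 under siRNA.2. Summed over libraries, the single count under siRNA.1 was 0.955% of the control level (95% exact binomial interval 0.0240% to 5.45%) and the 10 counts under siRNA.2 were 7.85% of it (3.65% to 15.0%). The fitted log2 fold change was -6.29 under siRNA.1 (SE 0.87, edgeR adjusted p = 1.01e-11) and -3.60 under siRNA.2 (SE 0.62, edgeR adjusted p = 7.18e-08). At counts this low the fitted value depends on the model's prior count and on single libraries. It was -8.24 without siRNA.1 replicate 2, -4.69 without siRNA.2 replicate 1 and -2.99 without siRNA.2 replicate 3. Reads from stretches of 100 bases that occur in both SERPINB3 and SERPINB4 could be assigned to either gene. Of the stretches in the canonical transcripts, 3.54% in SERPINB4 also occurred in SERPINB3. In SERPINB3, 36.0% also occurred in SERPINB4 or SERPINB11. Both strands were searched, so the latter share includes the bases that SERPINB3 has in common with SERPINB11 on the opposite strand. The part due to SERPINB4 was not separated. The values of the pair are uncertain to that extent.

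On the log2(FPKM + 1) scale the falls of these 3 genes were smaller, since the added 1 FPKM is large beside their levels: with limma SERPINB4 changed by -1.01 and -0.90, SERPINB3 by -1.72 and -1.94, and SERPINB13 by -1.70 and -1.90. All 6 remained past the adjusted threshold on that scale. Added together, SERPINB3, SERPINB4 and SERPINB13 held 12.5 ± 1.18 FPKM under control siRNA, 2.16 ± 0.251 FPKM under siRNA.1 and 1.67 ± 0.346 FPKM under siRNA.2 (SD, n = 3 each). The 3 genes are neighbours among the members on 18q21, within the part of the cluster nearest to SERPINB5.

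SERPINB2 moved in the opposite direction and was the highest member in every library. It had 3560, 3309 and 3846 counts under control siRNA, 8307, 7348 and 8526 under siRNA.1, and 7913, 7344 and 8868 under siRNA.2. In FPKM these were 84.7, 77.5 and 78.4, then 171, 174 and 178, then 146, 139 and 143. The 3 groups did not overlap, and siRNA.1 was highest and control siRNA lowest. The log2 fold change was 1.09 under siRNA.1 (SE 0.04, edgeR adjusted p = 6.16e-145), a 2.13-fold rise, and 0.82 under siRNA.2 (SE 0.04, edgeR adjusted p = 1.43e-82), a 1.77-fold rise. Among the 12532 genes of at least 1 FPKM it ranked 253rd from the top under siRNA.1 and 417th under siRNA.2. In the reference gene models (GENCODE), SERPINB2 shares 547 exonic bases with another gene model on the same strand, ENSG00000289724. Whether the annotation used for counting held that model was not established. In the deposited coordinates SERPINB10 starts at chr18:63897174, before the end of SERPINB2 at chr18:63903888. The exonic bases those deposited models share were not measured. Reads in shared bases could not be assigned to 1 of the genes.

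The remaining 18q21 members changed little or not past the test. SERPINB5 had 2428, 2676 and 2959 counts under control siRNA, 3209, 2785 and 3167 under siRNA.1, and 3729, 3696 and 4426 under siRNA.2. Its FPKM was 42.3 to 45.9 under control siRNA, 48.3 to 48.5 under siRNA.1 and 50.3 to 52.4 under siRNA.2, with no overlap between groups. It rose by 0.21 on the log2 scale under siRNA.2 (SE 0.05, edgeR adjusted p = 8.02e-05). Under siRNA.1 the log2 fold change was 0.11 (95% confidence interval 0.01 to 0.20, edgeR adjusted p = 0.0838), and it passed the threshold under 5 of the alternative settings.

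SERPINB8 was at 4.97 to 5.49 FPKM under control siRNA, 3.94 to 4.36 FPKM under siRNA.1 and 4.71 to 4.78 FPKM under siRNA.2. Its log2 fold change was -0.38 under siRNA.1 (SE 0.09, edgeR adjusted p = 0.000306) and -0.17 under siRNA.2 (95% confidence interval -0.35 to 0.01, edgeR adjusted p = 0.147). SERPINB7 was at 1.52 to 2.64 FPKM over all 9 libraries with overlapping groups, and its log2 fold changes were 0.05 (95% confidence interval -0.32 to 0.41) and -0.18 (-0.54 to 0.18), with edgeR adjusted p-values of 0.903 and 0.526. At 77 to 124 counts per library, changes within those intervals were not detectable for SERPINB7.

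The 3 members on 6p25 had log2 fold changes between -0.15 and 0.26. SERPINB1 was at 53.2 to 54.2 FPKM under control siRNA, 53.6 to 56.6 FPKM under siRNA.1 and 48.6 to 49.0 FPKM under siRNA.2. Its log2 fold change was 0.01 under siRNA.1 (95% confidence interval -0.09 to 0.11, edgeR adjusted p = 0.907) and -0.15 under siRNA.2 (SE 0.05, edgeR adjusted p = 0.0124). Without control siRNA replicate 3 the latter was -0.14 and no longer passed (edgeR adjusted p = 0.0563).

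SERPINB6 was at 6.99 to 7.38 FPKM under control siRNA, 8.35 to 8.53 FPKM under siRNA.1 and 7.44 to 8.13 FPKM under siRNA.2. It rose by 0.20 on the log2 scale under siRNA.1 (SE 0.06, edgeR adjusted p = 0.00219), and its log2 fold change under siRNA.2 was 0.08 (95% confidence interval -0.03 to 0.19, edgeR adjusted p = 0.307). SERPINB9 was at 3.48 to 4.60 FPKM under control siRNA, 4.58 to 4.96 FPKM under siRNA.1 and 3.71 to 4.24 FPKM under siRNA.2, its highest control value being replicate 1. Its log2 fold changes were 0.26 (95% confidence interval 0.04 to 0.48, edgeR adjusted p = 0.0630) and 0.02 (-0.20 to 0.24, edgeR adjusted p = 0.922). Without control siRNA replicate 1 the former was 0.40 and passed the test (edgeR adjusted p = 0.00816).

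Set side by side, 5 of the 7 members on 18q21 passed the test under each siRNA, 1 higher and 4 lower under siRNA.1 and 2 higher and 3 lower under siRNA.2. Over all genes tested, the shares were 15.0% higher and 15.2% lower under siRNA.1, and 15.8% and 15.1% under siRNA.2. On 6p25, 1 of 3 passed under each, near those shares, SERPINB6 higher under siRNA.1 and SERPINB1 lower under siRNA.2. The median log2 fold change was -0.38 and -0.18 on 18q21 and 0.20 and 0.02 on 6p25. The largest absolute value on 6p25 was 0.26, whereas SERPINB2, SERPINB3, SERPINB4 and SERPINB13 on 18q21 had absolute values of at least 0.82 under both siRNAs. Members of a cluster are not replicates, so the clusters were not tested against each other. Summed FPKM of the 18q21 members was 144 ± 2.02 under control siRNA, 231 ± 3.80 under siRNA.1 and 203 ± 3.54 under siRNA.2, and that of the 6p25 members was 64.6 ± 0.467, 68.2 ± 1.5 and 60.4 ± 0.536 (SD, n = 3), with SERPINB6 at its deposited length.

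Some genes around the clusters passed the test as well. Of 11 other tested genes within 1 Mb of the 18q21 cluster, 2 rose and 1 fell under each siRNA, against the shares of all genes given above (15.0% to 15.8% in each direction). VPS4B, an endosomal sorting ATPase and the nearest tested gene on the SERPINB5 side, had log2 fold changes of -0.21 and -0.40 (edgeR adjusted p = 0.000496 and 8.36e-13). ZCCHC2 rose by 0.67 and 0.52 (edgeR adjusted p = 8.12e-11 and 4.84e-07), and BCL2, an inhibitor of apoptosis below 1 FPKM in each group, by 0.63 and 0.83 (edgeR adjusted p = 0.00952 and 0.000223). No gene beyond SERPINB8 within that distance was tested. Of 20 other tested genes within 1 Mb of the 6p25 cluster, 2 rose and 1 fell under siRNA.1, and 3 rose and 2 fell under siRNA.2. Among those, WRNIP1, the nearest on the SERPINB1 side, had log2 fold changes of 0.04 and -0.28 (edgeR adjusted p = 0.707 and 1.81e-05), and LINC01011, the nearest on the SERPINB6 side, -0.62 and 0.14 (edgeR adjusted p = 0.237 and 0.823). RIPK1, a kinase of cell death signalling, fell by 0.34 and 0.33, and PSMG4, a proteasome assembly factor, rose by 0.69 and 0.76. TUBB2B, a beta-tubulin at 0.377 FPKM under control siRNA, rose by 1.60 and 1.12 (edgeR adjusted p = 1.17e-08 and 0.000153), more than SERPINB2 on the log2 scale. Within the 18q21 cluster, SERPINB10 had 9 to 31 counts per library and log2 fold changes of -0.30 and -0.38 (edgeR adjusted p = 0.687 and 0.589), and SERPINB12 had 0 to 5 counts per library.

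**Figure D3:**
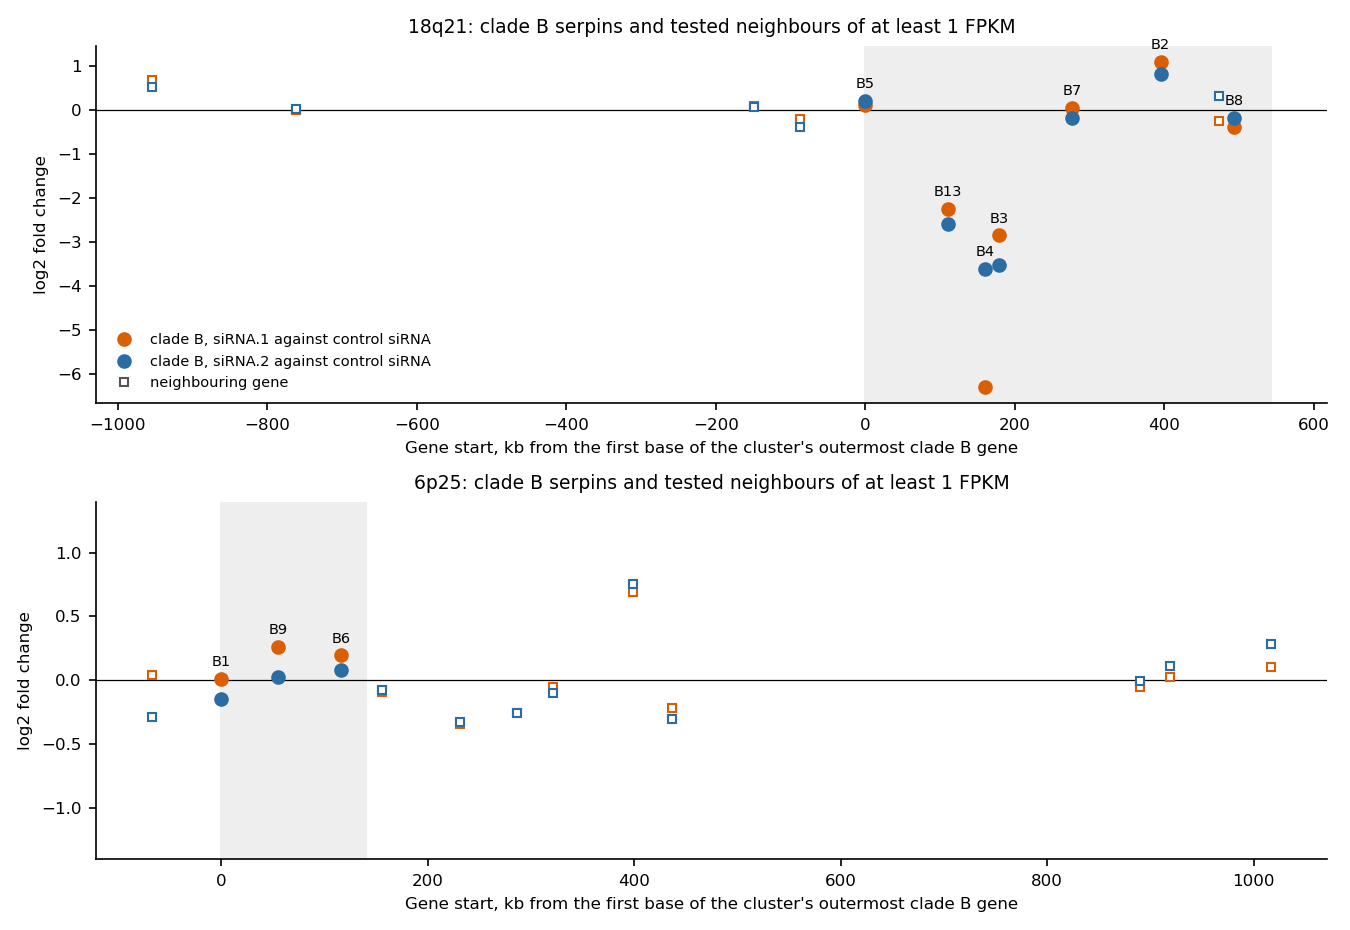
log2 fold change against control siRNA (vertical axes, orange for siRNA.1 and blue for siRNA.2) against the gene's lower coordinate in kb from the first base of each cluster (horizontal axes), for clade B members (filled circles) and for other tested genes of at least 1 FPKM (open squares). The shaded span is the cluster. The values of SERPINB13, SERPINB4 and SERPINB3 lie between -2.25 and -6.29, while the neighbours shown lie between -0.40 and 0.76. TUBB2B and BCL2, which averaged under 1 FPKM, are not drawn.

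On the deposited FPKM, the order of levels among the members changed under both siRNAs. SERPINB13 stood 4th under control siRNA and 8th under each PARylator siRNA, at 1.58 ± 0.296 and 1.23 ± 0.173 FPKM. SERPINB3 moved from 7th to 9th, and SERPINB4 was 10th throughout. SERPINB5 and SERPINB1 changed places under siRNA.2, at 51.4 ± 1.05 and 48.8 ± 0.176 FPKM, with ranges that did not overlap. In that group only SERPINB3 and SERPINB4 overlapped, and under siRNA.1 no neighbours in the order did. The summed level of the 10 members was 209 ± 1.89 FPKM under control siRNA, 300 ± 3.51 FPKM under siRNA.1 and 263 ± 4.0 FPKM under siRNA.2. SERPINB2 made up 38.4 ± 1.61% of that sum under control siRNA, 58.2 ± 0.741% under siRNA.1 and 54.3 ± 0.433% under siRNA.2. Scaled to canonical transcript lengths, its share was 33.0%, 51.1% and 47.3%.

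**Figure D4:**
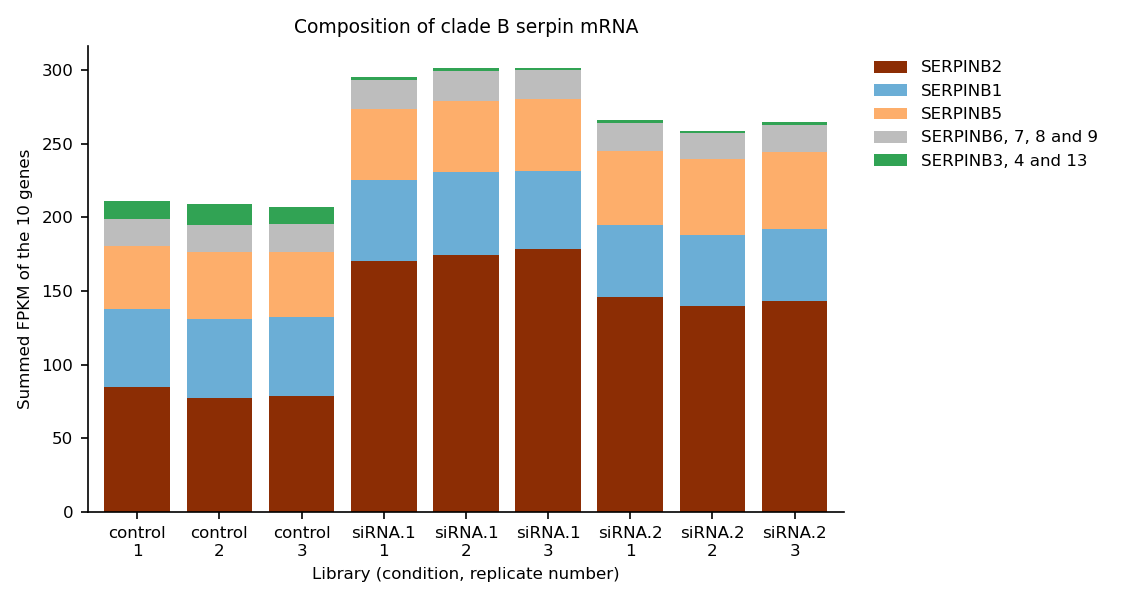
Stacked bars of the FPKM of the 10 clade B serpins (vertical axis) in each of the 9 libraries (horizontal axis), with SERPINB2 at the base. The sum is 207 to 211 FPKM in the control libraries, 296 to 302 FPKM under siRNA.1 and 259 to 266 FPKM under siRNA.2.

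Compared directly, siRNA.2 and siRNA.1 gave 0 members higher and 2 lower under siRNA.2, against 6.10% and 6.06% of all genes tested. DESeq2 and limma gave the same counts, and at an unadjusted p under 0.05 edgeR gave 3 higher and 5 lower. SERPINB2 was lower under siRNA.2 by a log2 difference of -0.27 (SE 0.04, edgeR adjusted p = 2.89e-09) and SERPINB1 by -0.16 (SE 0.05, edgeR adjusted p = 0.0151). For SERPINB13 the difference was -0.35 (95% confidence interval -0.63 to -0.06, edgeR adjusted p = 0.107), for SERPINB3 -0.68 (-1.41 to 0.04, edgeR adjusted p = 0.273) and for SERPINB4 2.69 (0.37 to 5.0, edgeR adjusted p = 0.136), so a difference between the siRNAs in the size of these falls was not shown. SERPINB8 passed the test under siRNA.1 alone, SERPINB5 under siRNA.2 alone and SERPINB6 under siRNA.1 alone, and their direct differences of 0.21, 0.10 and -0.12 did not pass (edgeR adjusted p = 0.144, 0.161 and 0.174). The difference of SERPINB1 did not pass without siRNA.1 replicate 2 (-0.14, edgeR adjusted p = 0.0580) or without siRNA.2 replicate 3 (-0.16, edgeR adjusted p = 0.0522).

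Proteases that these serpins are known to inhibit, and their plasminogen system partners, moved in both directions. Of 26 listed genes 17 were tested. Among those, 6 rose and 5 fell under siRNA.1 and 3 rose and 5 fell under siRNA.2, with medians of -0.12 and -0.09. The shares of all genes tested were 15.0% higher and 15.2% lower under siRNA.1, and 15.8% and 15.1% under siRNA.2. PLAU (urokinase), a target of SERPINB2, was at 199 ± 13 FPKM under control siRNA, 152 ± 8.85 FPKM under siRNA.1 and 170 ± 10.5 FPKM under siRNA.2. It fell by 0.42 and 0.24 on the log2 scale (edgeR adjusted p = 3.67e-25 and 1.26e-08). PLAUR, the urokinase receptor, rose by 0.51 and 0.46 (edgeR adjusted p = 8.70e-25 and 6.84e-21). CTSL and CTSS encode cathepsins inhibited by SERPINB3. CTSL rose by 0.52 and 0.58 and CTSS by 0.36 and 0.12 (edgeR adjusted p = 8.26e-20 and 4.75e-25 for CTSL, 1.85e-13 and 0.0426 for CTSS). CTSK, which encodes cathepsin K, averaged 0.317 FPKM. Its log2 fold changes were -0.46 and -0.64 and did not pass (edgeR adjusted p = 0.212 and 0.0558). The epidermal kallikreins KLK5 and KLK8 fell, KLK5 by 0.60 and 0.80 and KLK8 by 0.47 and 0.43 (edgeR adjusted p = 9.94e-08 and 2.15e-13 for KLK5, 2.46e-06 and 1.20e-05 for KLK8). CTSG and CMA1, which encode cathepsin G and chymase, the targets of SERPINB4, were at 0 in every library, and GZMB, the granzyme B target of SERPINB9, had a mean of 0.0111 FPKM.

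Among 22 serpins of other clades 7 were tested, of which 2 rose and 2 fell under siRNA.1 and 3 rose and 1 fell under siRNA.2. The shares of all genes tested were 15.0% to 15.8% in each direction. SERPINE2 (protease nexin), a secreted inhibitor of thrombin and urokinase, was at 2.38 ± 0.0416 FPKM under control siRNA, 6.45 ± 0.281 FPKM under siRNA.1 and 4.71 ± 0.296 FPKM under siRNA.2. It rose by 1.41 and 0.97 on the log2 scale (edgeR adjusted p = 4.77e-64 and 4.59e-30). SERPINH1, a collagen chaperone, had log2 fold changes of -0.11 and 0.12, which passed the test in opposite directions (edgeR adjusted p = 0.0134 and 0.00657). SERPINA1, SERPINF1 and SERPINF2 had log2 fold changes between -0.05 and 0.20 and did not pass.

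The genes whose library-scaled log2 counts followed SERPINB13 most closely over the 9 libraries, among 7258 genes of at least 5 FPKM, were PRR11, CDC42EP4 and RHOBTB3, with Pearson correlations of 0.995, 0.994 and 0.992. For SERPINB3 they were MED25, SLC35E2B and CLDN3, with 0.996, 0.969 and 0.966. The points share 3 conditions and the depth of their libraries, so these values are descriptions and carry no test. A correlation does not measure the size of a change. PRR11 had log2 fold changes of -0.49 under siRNA.1 and -0.55 under siRNA.2. CDC42EP4 had -0.49 and -0.56 and RHOBTB3 -0.68 and -0.75, beside -2.25 and -2.59 for SERPINB13. MED25 had -0.39 and -0.47, SLC35E2B -0.31 and -0.48 and CLDN3 -1.01 and -1.21, beside -2.84 and -3.53 for SERPINB3. CLDN3, a tight junction claudin, was at 10.2 FPKM under control siRNA, 5.15 FPKM under siRNA.1 and 4.43 FPKM under siRNA.2, and MED25, a Mediator subunit, at 6.08, 4.71 and 4.41 FPKM. SERPINB13 was followed at a correlation above 0.95 by 205 genes and SERPINB3 by 10.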

How the data were processed

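Libraries of TE13 cells were grouped by their labels into control siRNA and both PARylator siRNAs, 3 per condition. The authors captured poly(A)+ RNA, aligned reads with STAR and counted them with featureCounts (GRCh38, per the labels), and the versions, annotation release and strandedness are not given in the sources used here. The authors deposited unnormalized counts for each gene beside FPKM values, which the counts, the deposited exonic lengths and the library totals returned within 0.0051 FPKM. No deposited fold changes or p-values were used.

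Counts were tested with edgeR 4.0.16 in R 4.3.3 by the quasi-likelihood test, with TMM scaling (factors 0.989 to 1.02), on 21395 genes averaging 0.1 FPKM or more, in a single fit of the 3 conditions. P-values were adjusted by the Benjamini-Hochberg method over all those genes, with a threshold of 0.05. A gene "rose" or "fell" where it passed. The SE was taken from the log2 fold change and the square root of F, and 95% confidence intervals use t quantiles. A percent of control is a ratio of summed counts per library total, with an exact binomial interval for counting error. The fit was also run on simulated counts, with the same spread for all genes and changes placed only in genes of higher counts. That run does not cover genes of low counts such as SERPINB4, and no result here rests on it. Alternatives were DESeq2 1.42.0, limma 3.58.1 on log2(FPKM + 0.1) and log2(FPKM + 1), other scalings and filters, the 2 groups compared alone, a replicate block and each library left out in turn.

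Replicates differed beyond counting noise (chi-square over its degrees of freedom 2.76 to 4.62), so each library counted as 1 sample. The members and the lists of proteases, other serpins and markers were chosen with earlier results of these data known. Named list genes had a mean of at least 1 FPKM and were the 3 highest and 3 lowest by mean log2 fold change of both siRNAs. A listed gene that this rule names is not reported here. Named neighbours were the nearest tested gene on each side and those of at least 1 FPKM that passed in the same direction with both siRNAs. Genes most like a member were read for the 2 members, of at least 1 FPKM, with the largest mean change. The markers given by name were chosen after their values were seen, as were the protease genes CTSK, CTSG, CMA1 and GZMB and the neighbours BCL2 and TUBB2B. Coordinates matched GENCODE release 44 for 12 of the 13 clade B genes, and protein sequences were not used here.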

Additional observations from a re-analysis of the deposited data

Results flagged for a closer look

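SERPINB1 and SERPINB2 drew a closer look because the PARylator siRNAs differed from each other in a direct test. SERPINB2 rose under both siRNAs, and its level under siRNA.2 was lower than under siRNA.1 by a log2 difference of -0.271 (SE 0.04, edgeR adjusted p = 2.89e-09), with all 3 siRNA.2 libraries below all 3 siRNA.1 libraries. For SERPINB1 the difference was -0.157 (SE 0.05, edgeR adjusted p = 0.0151), again with all 3 siRNA.2 libraries below. The level of SERPINB1 passed the test against control siRNA under siRNA.2 and not under siRNA.1. Libraries of the PARylator siRNAs also did not overlap for SERPINB5, SERPINB6, SERPINB8, SERPINB9 and SERPINB13, whose direct differences did not pass. The share of all genes without such overlap was not counted.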

How the results depend on the processing

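The falls of SERPINB3, SERPINB4 and SERPINB13 and the rise of SERPINB2 kept their direction and passed the threshold under both siRNAs under each alternative that tested them. SERPINB4 was not tested where a mean of at least 1 FPKM was asked. Besides the leave-one-out fits, the values of the 10 members kept direction and side of the threshold in 261 cases, and in the other 6 they newly passed. These were SERPINB5 under siRNA.1 under DESeq2, limma with either pseudocount, library totals alone and the filter of 1 FPKM, and SERPINB9 under siRNA.1 under library totals alone. The 261 cases include SERPINB4 for siRNA.2 against siRNA.1 under DESeq2, which returned no adjusted p and was counted as not passing. Genes past the threshold between siRNA.2 and siRNA.1 numbered 2603 with edgeR, 1437 with limma on log2(FPKM + 0.1) and 1414 on log2(FPKM + 1), and the cause was not tested.

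With each library left out in turn, members past the threshold numbered between 1 and 2 for siRNA.2 against siRNA.1, and the 1 came where SERPINB1 was lost, without siRNA.1 replicate 2 or siRNA.2 replicate 3. Values near 0 changed sign. SERPINB9 under siRNA.2 ranged from -0.051 to 0.16, SERPINB1 under siRNA.1 from -0.0023 to 0.029, and SERPINB7 under siRNA.1 from -0.051 to 0.11.

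The replicate numbers did not pair the libraries. The deviations of same-numbered libraries correlated between -0.194 and 0.107, with 1 of 9 pairs over 0.1, and a library's closest library in another condition carried its own number in 4 of 18 cases. With a replicate block 6215, 6359 and 2342 genes passed in the 3 comparisons, against 6472, 6614 and 2603 without it, and the member counts stayed at 6, 6 and 2. Depth limits SERPINB4, SERPINB3 and SERPINB7, whose counts per library did not exceed 130. In the reference gene models (GENCODE), SERPINB3, SERPINB4, SERPINB2 and SERPINB8 share sequence with other genes, and some of their reads may fall there. With levels scaled to canonical transcript lengths, an alternative chosen after seeing the data, SERPINB2 made up 33.0%, 51.1% and 47.3% of the summed level under control siRNA, siRNA.1 and siRNA.2, and SERPINB6 then had 10.04 times its deposited level.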
